A study of Mus musculus with 6 samples.

Results

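The genes described here are 10 genes of bone morphogenetic protein (BMP) signalling: the ligands Bmp2, Bmp4, Bmp5, Bmp6 and Bmp7, the receptors Bmpr1a, Bmpr2 and Acvr1, and the secreted antagonists Nog and Grem1. They were taken by symbol from a table of 45703 genes, in which each symbol occurred once. The table held 6 cultures, given as biological replicates, of dorsal root ganglia, which hold the cell bodies of sensory neurons and their glia. The donors were C57BL/6 mice of the genotype wild type, aged 4 to 6 weeks and labelled adult; how many mice made up a culture is not given. All cultures received the same treatment: the dissociated ganglion cells grew for 7 days in medium to which 10% fetal calf serum and 2 mitogens, EGF and FGF (10 ng/ml), had been added, and each sample came from 2 dishes. There was no second condition, no untreated ganglion and no separation of cell types, so the comparisons were between genes within a library and between replicate cultures.

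BMPs are secreted dimers of the TGF-beta superfamily. They bring together type I receptors, here Bmpr1a and Acvr1, and type II receptors, here Bmpr2, all of them transmembrane serine/threonine kinases. The activated type I receptor phosphorylates Smad1, Smad5 and Smad9, which enter the nucleus with Smad4 and raise genes such as the Id family, while noggin (Nog) and gremlin 1 (Grem1) bind ligands outside the cell. In the peripheral nervous system the pathway is known for its part in neural crest development and in the growth of sensory axons after injury.

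The 6 libraries held 20070639 to 22968642 counts, so that 1 count corresponded to 0.0435 to 0.0498 CPM, the usual scaling of a count by the total of its library. Levels of different genes are compared as CPM per kb of combined exon length. Markers of the glial lineage, neurons and fibroblasts were all present, and the cultures differed most in markers of non-neural cells. The summed level of 10 fibroblast markers was lowest in replicate 1 (3957 CPM) and highest in replicate 5 (16723 CPM). Collagen genes made up most of it: Col1a1, Col1a2 and Col3a1 had 1046, 1880 and 370 CPM in replicate 1. In replicate 5 they had 3755, 3899 and 5678 CPM. The summed level of 8 glial lineage markers lay between 4856 and 7103 CPM and that of 8 neuronal markers between 887 and 1850 CPM. Among these sets, replicates 1 and 5 stood at opposite ends in the fibroblast markers only. The sums for mural, endothelial and macrophage markers, given further below, had the same ends. The glial lineage sum was highest in replicate 2 and the neuronal sum in replicate 3, and both were lowest in replicate 5. In bulk RNA, fewer cells of a type and less RNA per cell cannot be told apart.

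The receptors were abundant in every culture and the ligands and antagonists scarce. The 3 receptors together reached 120.1 ± 4.08 CPM per kb (SD, n = 6), the 5 ligands 3.19 ± 1.94 and the 2 antagonists 0.653 ± 0.421. The receptor sum lay between 115.0 and 125.2 in the 6 libraries. The ligand sum ran from 1.02 in replicate 1 over a median of 2.85 to 6.14 in replicate 5, and the antagonist sum from 0.220 in replicate 1 to 1.29 in replicate 4. The summed receptor level was thus 18.9 times the summed ligand level in replicate 5 and 122 times in replicate 1. In this ratio the ligand sum varied and the receptor sum hardly did. Single receptors could differ in opposite directions within that sum: replicate 1 had the highest Bmpr1a (84.6 CPM per kb) and the lowest Acvr1 (17.1).

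**Figure D1:**
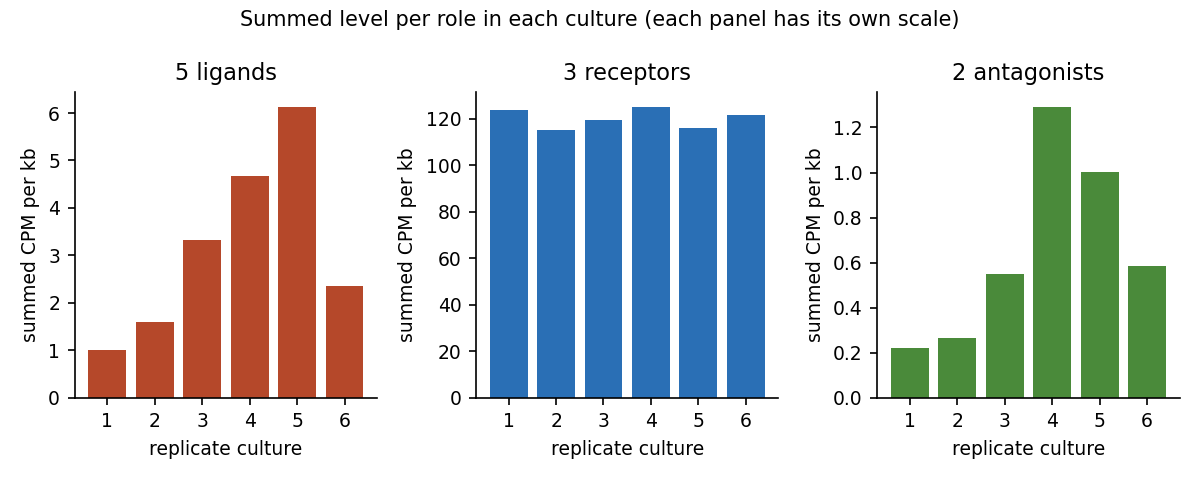
Summed CPM per kb of the 5 ligands (left), 3 receptors (middle) and 2 antagonists (right) in each of the 6 replicate cultures; bars start at 0 and each panel has its own scale. The receptor bars stay between 115.0 and 125.2, while the ligand bars range from 1.02 to 6.14.

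Bmpr1a, the type I receptor also known as ALK3 (chromosome 14, 34411061 to 34503336, minus strand, GRCm38.p6), was the highest of the 10 genes. Its lowest, median and highest levels were 66.0, 71.2 and 84.6 CPM per kb, with a mean of 73.1 ± 6.33 (SD, n = 6). Replicate 5 was lowest and replicate 1 highest, and the other 4 cultures lay close together. The mean of Bmpr1a exceeded that of 97.2% of the 27837 genes with any count.

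Acvr1, the type I receptor also known as ALK2 (chromosome 2, 58446438 to 58566828, minus strand), had lowest, median and highest levels of 17.1, 26.1 and 28.9 CPM per kb and a mean of 25.0 ± 4.26 (SD, n = 6). Its low value was that of replicate 1; the other 5 cultures lay at 23.7 CPM per kb or above. Bmpr2, the type II receptor dedicated to BMPs (chromosome 1, 59764279 to 59878081, plus strand), was the steadiest of the 10 genes, at 20.7, 22.2 and 23.2 CPM per kb with a mean of 22.0 ± 1.03 (SD, n = 6). Its coefficient of variation over cultures was 4.66%, against 8.65% for Bmpr1a and 17.1% for Acvr1.

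Within each library Bmpr1a exceeded both other receptors. It was 2.96-fold above Acvr1 (log2 difference 1.56 ± 0.373, SD) and 3.30-fold above Bmpr2 (Bmpr2 minus Bmpr1a, -1.72 ± 0.157), each in 6 of 6 libraries. These are 2 of 7 gene pairs compared by an exact two-sided sign-flip permutation test on log2(CPM per kb + 0.1). For both, p was 0.0312, the smallest that 6 libraries allow, and 0.0365 after Benjamini-Hochberg adjustment over the 7 pairs. Acvr1 and Bmpr2 were neighbours in level, and Acvr1 was the higher in 5 of 6 libraries (log2 ratio 0.16 ± 0.277).

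**Figure D2:**
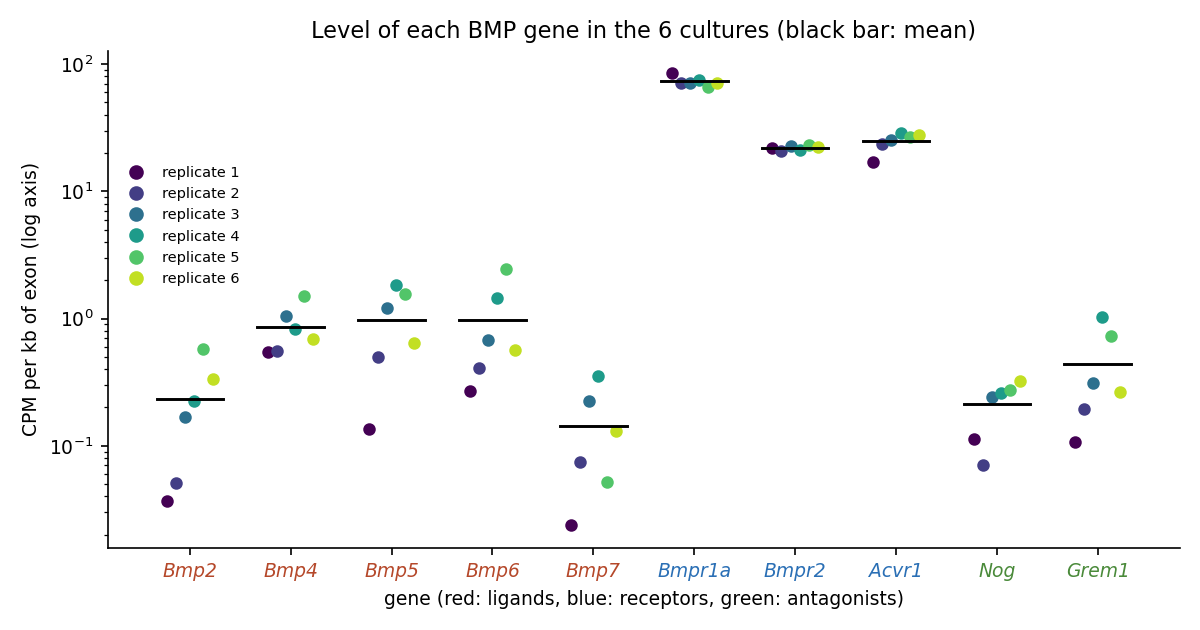
CPM per kb of exon (log axis) of the 10 genes in the 6 cultures, 1 point per culture coloured by replicate, with the mean as a black bar. The 3 receptors lie at 17.1 or above in all cultures and every ligand and antagonist at 2.44 or below.

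The ligands were counted at low numbers. Bmp5 (chromosome 9, 75775365 to 75900316, plus strand) and Bmp6 (chromosome 13, 38345716 to 38500314, plus strand) are close relatives of Bmp7, while Bmp4 (chromosome 14, 46383525 to 46390669, minus strand) pairs with Bmp2. RefSeq start windows of GRCm38.p6 were found for 7 of the 10 genes, and 3 of them, Bmp4, Bmp5 and Grem1, held 249 or 250 bases before the start with no annotated exon. Those 3 are shown 5′ to 3′ because they were free of annotated exons over that length. They belong to the ligand with the smallest relative spread, the ligand with the highest mean level and the antagonist with the higher mean. Capitals mark GGCGCC and GGAGCC, sequences bound by BMP-activated Smads, and the TATA box TATAAA, searched on both strands.
Bmp4 chr14:46390670-46390919 (- strand): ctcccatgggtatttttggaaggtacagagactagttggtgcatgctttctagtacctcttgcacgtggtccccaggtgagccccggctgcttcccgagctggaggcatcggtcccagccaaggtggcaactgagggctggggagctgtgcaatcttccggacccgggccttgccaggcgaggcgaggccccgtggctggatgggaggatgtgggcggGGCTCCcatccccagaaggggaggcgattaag
Bmp5 chr9:75775115-75775363 (+ strand): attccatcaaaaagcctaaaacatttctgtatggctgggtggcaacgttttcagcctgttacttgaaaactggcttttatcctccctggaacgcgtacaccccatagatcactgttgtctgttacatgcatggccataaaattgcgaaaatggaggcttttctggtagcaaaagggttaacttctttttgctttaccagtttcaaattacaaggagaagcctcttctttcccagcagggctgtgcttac
Grem1 chr2:113758649-113758898 (- strand): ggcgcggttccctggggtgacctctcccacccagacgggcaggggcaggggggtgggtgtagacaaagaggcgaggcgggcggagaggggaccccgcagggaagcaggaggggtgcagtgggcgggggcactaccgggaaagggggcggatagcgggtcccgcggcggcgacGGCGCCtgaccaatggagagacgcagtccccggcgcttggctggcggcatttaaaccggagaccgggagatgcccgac
The Grem1 window held 24 CpG dinucleotides, that of Bmp4 11 and that of Bmp5 4, against a median of 6 over 32851 start windows of the same 250 bases. GGCGCC occurred once in the Grem1 window and GGAGCC, as its reverse complement, once in that of Bmp4; the Bmp5 window had no match to the 3 motifs. Of all windows, 9.59% held GGCGCC, 26.0% GGAGCC and 12.4% TATAAA. The matches describe letters only.

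Bmp5 had the highest mean of the ligands. Its lowest, median and highest levels were 0.137, 0.922 and 1.84 CPM per kb (12 to 141 counts), with a mean of 0.979 ± 0.660 (SD, n = 6). Replicate 1 was far below the rest, replicates 4 and 5 were highest, and the range spanned 13.4-fold. In replicate 1 the level in CPM was 0.522, with an exact 95% binomial interval of 0.270 to 0.913, and in replicate 4 it was 7.03 (5.91 to 8.29). Such intervals cover counting error only.

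Bmp6 was at 0.269, 0.622 and 2.44 CPM per kb (lowest, median, highest), with a mean of 0.968 ± 0.829 (SD, n = 6), from 18.5 to 153 counts. Replicate 5 was highest, replicate 4 next, and replicate 1 lowest, a 9.07-fold range. Bmp4 varied least of the ligands in relative terms, at 0.550, 0.760 and 1.51 CPM per kb with a mean of 0.864 ± 0.368 (SD, n = 6). The 3 genes were not separated in level: Bmp5 exceeded Bmp6 in 4 of 6 libraries, and Bmp6 exceeded Bmp4 in 2 of 6.

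Which of them led depended on the culture. Bmp4 made up 54.1% of the summed ligand level in replicate 1 and 17.6% in replicate 4. Bmp5 was at 13.4% in replicate 1 and 39.2% in replicate 4, and Bmp6 reached 39.8% in replicate 5.

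Bmp2 (chromosome 2, 133552159 to 133562896, plus strand), a close paralog of Bmp4, was counted 3 to 43 times per library. Its lowest, median and highest levels were 0.0366, 0.196 and 0.576 CPM per kb, with a mean of 0.232 ± 0.202 (SD, n = 6). Replicates 1 and 2 were lowest, at 3 and 4 counts, and replicate 5 highest. In each of the 6 libraries Bmp2 lay below Bmp4, on average 3.21-fold (log2 difference -1.68 ± 0.558; exact sign-flip permutation p = 0.0312, adjusted over the 7 pairs 0.0365).

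Bmp7 (chromosome 2, 172868012 to 172940321, minus strand), known from kidney and eye development, was the lowest of the 10 genes at 0.0237, 0.102 and 0.353 CPM per kb, with a mean of 0.143 ± 0.125 (SD, n = 6). It had 2 counts in replicate 1 and 4 in replicate 5, but 26 in replicate 4. Its pattern thus parted from that of Bmp6 in replicate 5, the culture with the most Bmp6. Bmp7 was below its relatives Bmp5 and Bmp6 and below Bmp4 in all 6 libraries. The log2 differences were 1.99 ± 0.824 for Bmp5 minus Bmp7, 1.96 ± 1.04 for Bmp6 minus Bmp7 and -2.06 ± 0.792 for Bmp7 minus Bmp4 (exact sign-flip permutation p = 0.0312 each, adjusted over the 7 pairs 0.0365). At levels this low the pseudocount sets the size: with 1 in place of 0.1 these differences were 0.73, 0.70 and -0.69 and that of Bmp2 minus Bmp4 was -0.59, with the same direction and adjusted p.

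The antagonists were scarce as well: the mean of Nog lay between those of Bmp2 and Bmp7, and that of Grem1 above both. Grem1, of the DAN family (chromosome 2, 113748675 to 113758648, minus strand), had lowest, median and highest levels of 0.106, 0.286 and 1.03 CPM per kb and a mean of 0.439 ± 0.362 (SD, n = 6), from 4 to 34 counts. Replicates 4 and 5 stood above the other 4 cultures. Nog (chromosome 11, 89300638 to 89302559, minus strand) was at 0.0711, 0.250 and 0.323 CPM per kb with a mean of 0.213 ± 0.0988 (SD, n = 6), from 3 to 13 counts. Nog was below Grem1 in 4 of 6 libraries, a difference within the spread (log2 -0.60 ± 0.730; exact sign-flip permutation p = 0.156, adjusted over the 7 pairs 0.156).

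Ordered by mean CPM per kb the genes ran Bmpr1a, Acvr1, Bmpr2, Bmp5, Bmp6, Bmp4, Grem1, Bmp2, Nog and Bmp7. Of the 9 neighbouring pairs, 2 kept their order in all 6 libraries, Bmpr1a over Acvr1 and Bmpr2 over Bmp5, the latter with a log2 ratio of 4.66 ± 1.12 (SD). In the other 7 pairs the order differed between libraries. Bmp4 over Grem1 had the largest ratio of these 7, 1.02 ± 0.692, and held in 5 of 6 libraries.

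Relative to their means, the ligands and antagonists varied more between replicate cultures than the receptors. The coefficient of variation was 42.6% (Bmp4) or more for the ligands and antagonists and 17.1% (Acvr1) or less for the receptors. Counting noise, which is larger for scarce genes, is part of that spread. All 5 ligands had their lowest level in replicate 1, as did 7 of the 10 genes, and 3 of the 5 ligands were highest in replicate 5. The share of all genes with these extremes was not computed. Some minima were near ties: Bmp4 had 1.132 CPM in replicate 1 and 1.138 in replicate 2. Bmp2 had 3 counts in replicate 1 and 4 in replicate 2, and Bmp7 had 2 in replicate 1 and 4 in replicate 5. Differences beyond counting noise were tested by a chi-square test with Benjamini-Hochberg adjustment over the 14998 genes kept by edgeR's filter on low counts, of which 76.3% were called. The filter kept 6 of the 10 genes, Bmp4, Bmp5, Bmp6 and the 3 receptors, and all 6 were called, a share that says little against that background. Without replicate 5 the call of Bmp4 was lost (adjusted p = 0.0664, chi-square test). The residual quasi-dispersion of edgeR, a measure of spread set against genes of similar abundance, was higher for Bmp5 than for 96.8% of the tested genes and higher for Bmp6 than for 96.6%. Acvr1 stood at 88.0%, Bmp4 at 80.6%, Bmpr1a at 36.6% and Bmpr2 at 5.61% on the same scale.

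Of the 4 genes that the filter left out, Bmp2, Bmp7 and Grem1 varied beyond counting noise when all 26854 genes with a rounded count were tested (chi-square, adjusted p = 2.05e-12, 2.56e-07 and 3.59e-09), where 50.2% of genes were called. Nog, with 52 counts in all against 66 for Bmp7, did not pass (adjusted p = 0.160).

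The RNA level of fibroblast markers was also lowest in replicate 1 and highest in replicate 5. The fibroblast score was the mean log2(CPM + 0.5) of 10 fibroblast genes with library sizes scaled by the trimmed mean of M-values (TMM). It was 6.25 in replicate 1, between 7.45 and 7.56 in replicates 2, 3 and 6, 8.48 in replicate 4 and 9.29 in replicate 5. For each gene the slope of its log2 level on this score was tested with edgeR's quasi-likelihood test, with adjustment over all 14998 genes. A higher level with a higher score was called for 5.14% of genes and a lower level for 1.2%, or 6.34% in either direction.

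Bmp6 passed this test. Its level rose by 1.12 ± 0.117 (log2 per unit of score, SE; edgeR adjusted p = 0.00217), about as steeply as the score itself. Its counts were 18.5 in replicate 1, 27 to 44 in replicates 2, 3 and 6, 87 in replicate 4 and 153 in replicate 5, so every culture with a higher score than that middle group had more Bmp6. Without replicate 5 the slope was 1.12 with an edgeR adjusted p of 0.0717. Without replicates 1 and 5 it was 1.41 with 0.719, and 0 of all genes were called in that fit of 4 cultures.

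Bmp5 had nearly the same slope, 1.05 ± 0.267, with a larger error, and did not pass (edgeR adjusted p = 0.0669). The call depended on the fit: the adjusted p was 0.0498 without the filter on low counts, 0.0361 without replicate 3 and 0.000222 with DESeq2. The slope was 0.69 without replicate 1 and 1.61 without replicate 5. Bmp4 had a slope of 0.44 ± 0.138 (edgeR adjusted p = 0.111), which was 0.26 without replicate 5.

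The receptors' slopes were small and none passed. They were 0.19 ± 0.0720 for Acvr1, -0.10 ± 0.0430 for Bmpr1a and 0.0045 ± 0.0363 for Bmpr2 (edgeR adjusted p = 0.160, 0.210 and 0.958). The slope of Acvr1 was 0.04 without replicate 1 and 0.33 without replicate 5. In all, 1 of the 6 tested genes was called higher and 0 lower with edgeR, against 5.14% and 1.2% of all genes. At an unadjusted p under 0.05 these counts were 4 and 0, against 13.5% and 10.4% of all genes. DESeq2 called 2 and 0, against 7.88% and 4.22% of the genes to which it gave an adjusted p.

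Slopes of the 4 genes left out by the filter come from the fit of all 26854 genes, of which 3.83% were called higher and 0.771% lower, and none of the 4 passed. Grem1 had 1.06 ± 0.259 (edgeR adjusted p = 0.0545), Bmp2 1.01 ± 0.317 (0.123), Bmp7 0.51 ± 0.495 (0.659) and Nog 0.34 ± 0.296 (0.601). Without replicate 5 the slope of Grem1 was 1.59 (edgeR adjusted p = 0.0861), and Bmp2 passed without replicate 6 (1.30, edgeR adjusted p = 0.0255). Bmp7 had the largest error: its slope was -0.12 without replicate 1, 0.06 without replicate 4 and 1.58 without replicate 5.

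**Figure D3:**
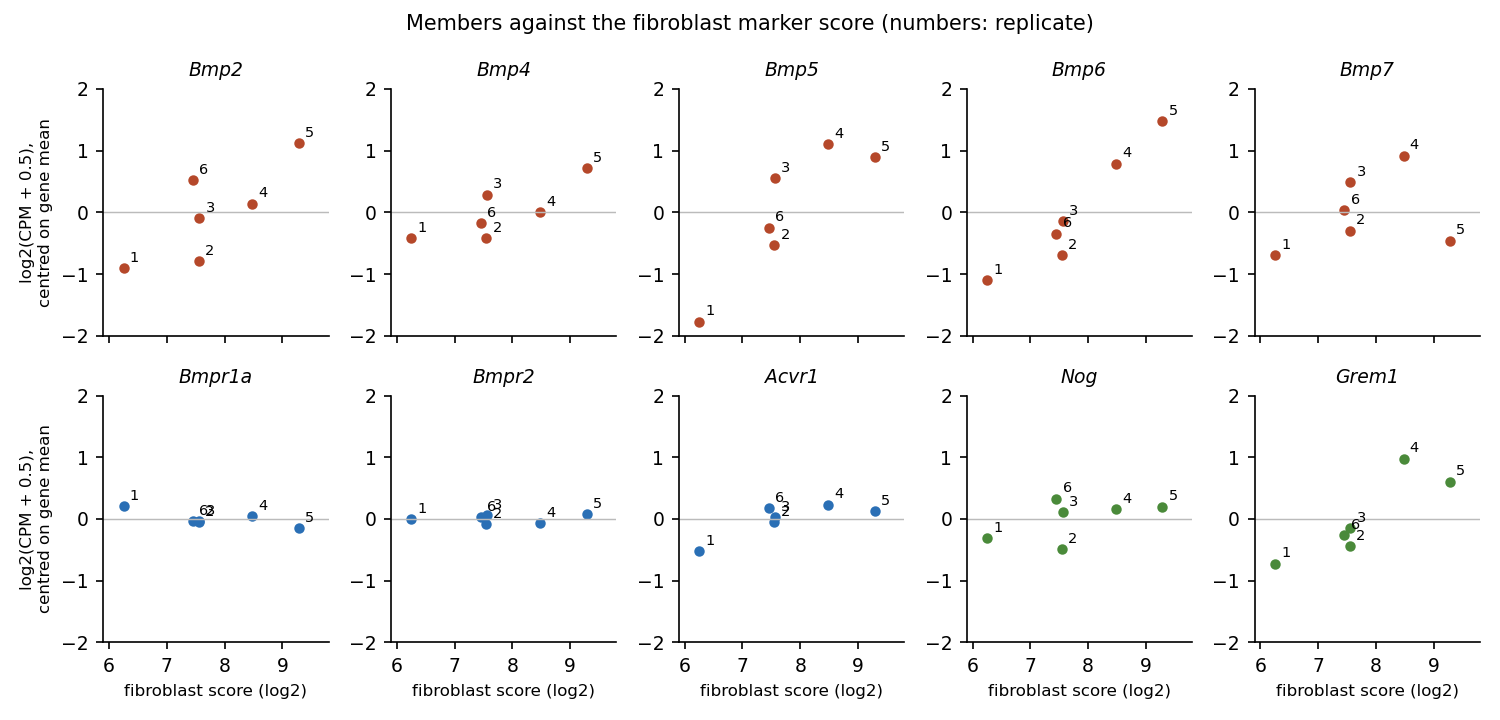
Centred log2(CPM + 0.5) of each of the 10 genes (vertical) against the fibroblast score in log2 units (horizontal), 1 numbered point per replicate culture. Bmp6 climbs from replicate 1 to replicate 5, the receptors stay near 0, and Bmp7 is low in replicate 5 in spite of the highest score of 9.29.

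Summed markers of other cell types had the same extremes across these cultures. The summed level of 6 mural markers, of the contractile cells of vessel walls, was 55.4 CPM in replicate 1 and 1054 CPM in replicate 5. That of 6 endothelial markers was 8.14 and 116 CPM in the same cultures and that of 6 macrophage markers 12.2 and 126 CPM, in each case the lowest and the highest of the 6. Of these markers 5 of 6, 4 of 6 and 5 of 6 averaged at least 1 CPM. Kcnj8, Tek, Cldn5 and Aif1 averaged less, and the endothelial marker Cldn5 and the macrophage marker Aif1 stayed near 0 in most libraries. In replicate 5 Acta2 gave 836 of the 1054 CPM of the mural sum and Cdh5 75.3 of the 116 CPM of the endothelial sum. Not every single marker had the extremes of its sum: C1qa was at 25.9 CPM in replicate 4 and 20.7 in replicate 5. The glial lineage score was lowest in replicate 5, at 8.17, and 8.71 in replicate 1. With that score in place of the fibroblast score, its sign turned, Bmp6 was again called (edgeR adjusted p = 0.0474). The part of each cell type in the slopes was not tested.

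The other genes of the pathway numbered 56, of which 39 averaged at least 1 CPM and 35 entered the tests. Among the 35, 34 varied beyond counting noise, against a background of 76.3% of genes, and the exception was the type II receptor Acvr2a. With the fibroblast score 5 of the 35 were called higher and 1 lower (edgeR, background 5.14% and 1.2% of genes). The median slope of the 35 was 0.07, against -0.01 over all tested genes.

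Of 11 further ligands, 9 averaged under 1 CPM, and Bmp10, Gdf2 and Gdf7 had no count in any library. The exceptions were Gdf11, a ligand of activin-type receptors, at 9.10 ± 1.15 CPM per kb (SD, n = 6), and Gdf10 at 0.356 ± 0.352. Gdf11 thus stood above the sum of the 5 BMP ligands, and its counts were fractional in all 6 libraries.

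Among 10 further receptors and co-receptors, 9 averaged at least 1 CPM. The co-receptor Tgfbr3, betaglycan, was the highest at 103.7 ± 28.1 CPM per kb, followed by the BMP co-receptor Rgmb at 28.7 ± 1.74 (SD, n = 6). The type I receptor Acvrl1, known from endothelium, was at 11.3 ± 2.14, the type II receptors Acvr2a and Acvr2b at 10.6 ± 0.432 and 2.34 ± 0.309, the RGM receptor Neo1 at 7.55 ± 2.22 and Rgma at 4.34 ± 1.15. Bmpr1b, the close relative of Bmpr1a, reached 0.167 ± 0.150. Endoglin (Eng), a co-receptor at 4.63 ± 2.90, rose with the fibroblast score (slope 0.84 ± 0.169 SE, edgeR adjusted p = 0.0311), and Acvr2b fell by 0.20 ± 0.0378 per unit (edgeR adjusted p = 0.0264). Tgfbr3 had a slope of -0.37 ± 0.0993 and did not pass (0.0767), but passed without replicate 2 (edgeR adjusted p = 0.0352) and with DESeq2 (0.00178). It also passed with the median of the fibroblast list (edgeR adjusted p = 0.0440) and with the glial lineage score, its sign turned (0.0471). The calls of Eng and Acvr2b were each lost without replicate 1, 4 or 5, and that of Acvr2b also without replicate 2; without replicate 5 the slopes were 0.90 for Eng and -0.18 for Acvr2b (edgeR adjusted p = 0.273 and 0.277).

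Of 18 further extracellular antagonists and modulators, 13 averaged at least 1 CPM, and several stood far above Nog and Grem1. Fstl1, a follistatin-like glycoprotein, was at 228 ± 124 CPM per kb, Bmp1, which despite its name is a procollagen and chordin protease, at 118 ± 22.6, and Sostdc1, a secreted BMP and Wnt antagonist, at 49.2 ± 15.8 (SD, n = 6). Follistatin (Fst), which binds activins and some BMPs, was at 35.9 ± 11.6, Fstl3 at 33.4 ± 11.8, Nbl1 at 23.4 ± 4.51 and Twsg1 at 19.1 ± 1.53. Lower levels were found for Crim1 (6.29 ± 3.08), Dand5 (2.12 ± 0.480), Bmper (2.05 ± 1.54), chordin (Chrd, 0.327 ± 0.218) and Tll1 (0.218 ± 0.192).

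In edgeR's test 4 of the 11 tested genes of this group rose with the fibroblast score and 0 fell (background 5.14% and 1.2%). They included Bmper, a chordin-like BMP binder (slope 0.87 ± 0.132, SE), Fstl1 (0.74 ± 0.0649) and Bmp1 (0.25 ± 0.0436), with edgeR adjusted p of 0.0108, 0.000948 and 0.0201. Fstl1 passed without any 1 of the cultures, for instance without replicate 5 (0.75, edgeR adjusted p = 0.0326). Bmper did not pass without replicate 1 or 5, nor Bmp1 without replicate 1, 4 or 5; without replicate 5 the slopes were 0.63 and 0.27 (edgeR adjusted p = 0.301 and 0.158). Fst and Sostdc1 had slopes of -0.09 ± 0.199 and -0.16 ± 0.209 (edgeR adjusted p = 0.828 and 0.677), which turned to 0.29 for both without replicate 5. Both were low in replicates 1 and 5: Sostdc1 was at 65.8 and 43.5 CPM there and between 82.4 and 112.8 CPM in the other 4 cultures.

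**Figure D4:**
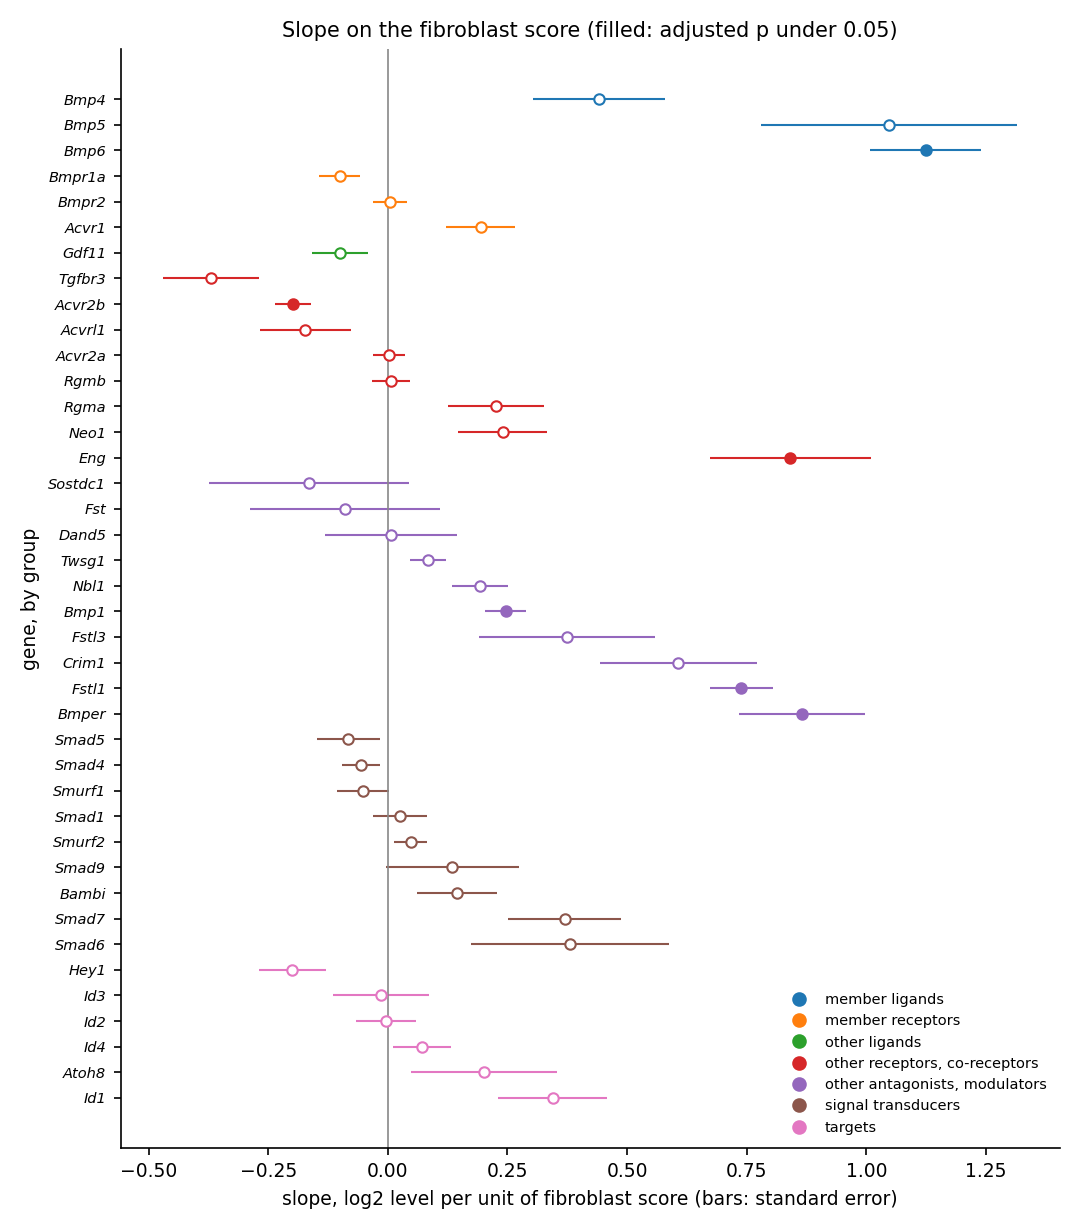
Slope of log2 level per unit of fibroblast score (horizontal, bars: standard error) for the 6 tested members and 34 tested pathway genes, coloured by group; filled points had an edgeR adjusted p under 0.05. Bmp6 at 1.12 lies farthest to the right, with Bmp5 beside it as an open point, and the 3 member receptors lie between -0.10 and 0.19.

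The intracellular arm was present in all cultures. All 9 signal transducers averaged at least 1 CPM. Smurf1 and Smurf2, ubiquitin ligases that limit Smad and receptor levels, were at 46.6 ± 4.49 and 18.7 ± 1.09 CPM per kb, Smad4 at 23.2 ± 1.31, Smad5 at 20.7 ± 2.67 and Smad1 at 11.3 ± 1.19, whereas Smad9 was at 0.648 ± 0.172 (SD, n = 6). The feedback inhibitors, which BMP signalling itself raises, were lower: Smad7 at 3.27 ± 1.05, Smad6 at 2.40 ± 1.06 and the decoy receptor Bambi at 1.35 ± 0.239. All 9 varied beyond counting noise, against 76.3% of all tested genes, and none passed the slope test (edgeR). The largest slopes were 0.38 ± 0.207 for Smad6 and 0.37 ± 0.118 for Smad7 (edgeR adjusted p = 0.311 and 0.118), of which Smad7 passed with DESeq2 (0.0330).

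Of 8 target genes, 6 averaged at least 1 CPM. Id3 was at 104.9 ± 17.5 and Id2 at 81.5 ± 7.85 CPM per kb, both transcriptional inhibitors of the Id family that other pathways raise as well, against 12.9 ± 4.10 for Id1 and 5.36 ± 0.605 for Id4 (SD, n = 6). Hey1 was at 7.41 ± 1.17 and Atoh8 at 2.85 ± 0.812, while the homeobox genes Msx1 and Msx2 averaged under 1 CPM. Id1, the target most used as a readout of BMP signalling, had its lowest level of 8.84 CPM in replicate 1 and its highest of 22.5 CPM in replicate 5, with 13.3 to 18.4 CPM between them. Its slope on the fibroblast score, 0.34 ± 0.114, did not pass (edgeR adjusted p = 0.128), nor did those of the other 5 tested targets. Id1 passed without replicate 6 (0.39, edgeR adjusted p = 0.0476) and with DESeq2 (adjusted p = 0.0469).

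**Figure D5:**
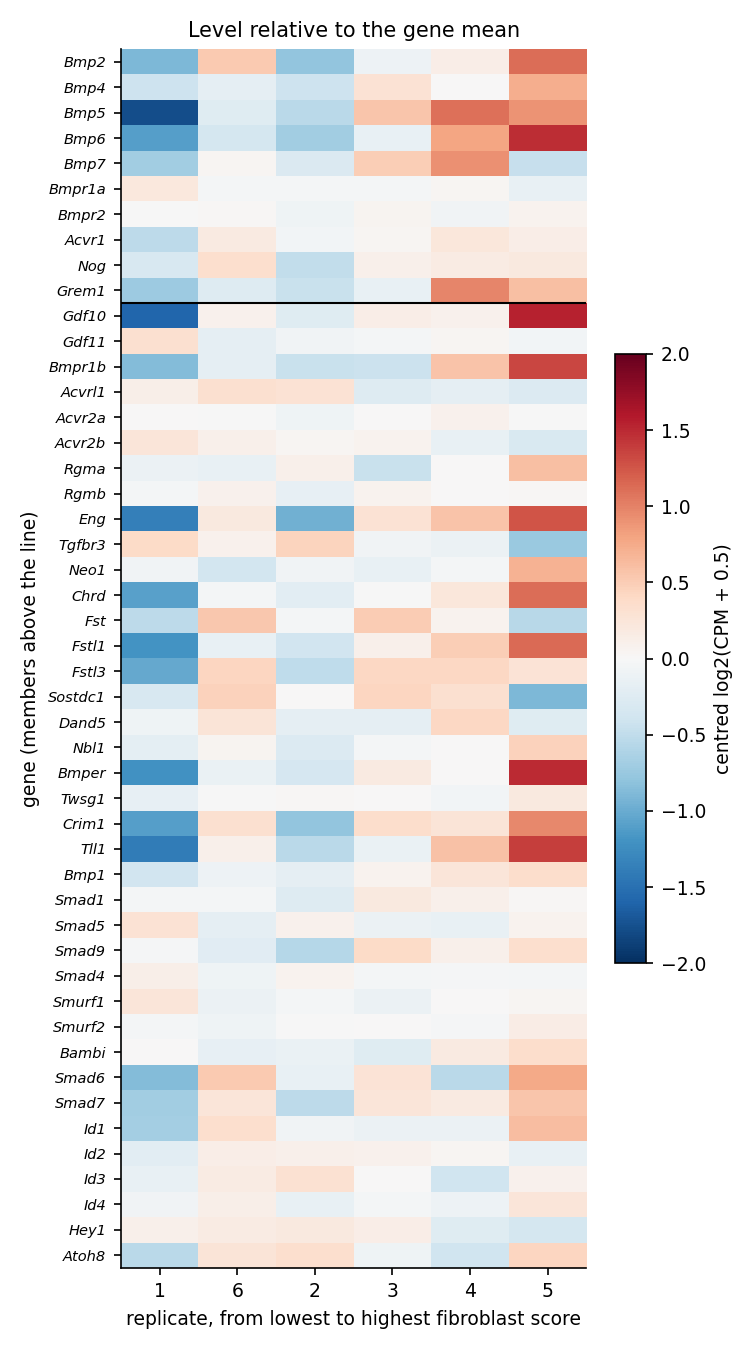
Centred log2(CPM + 0.5) of the 10 members (above the line) and 38 pathway genes with a mean of at least 1 CPM (below it) in the 6 cultures, ordered from the lowest to the highest fibroblast score. The lowest ligand values (blue) lie in replicate 1, and the rows of Bmpr1a, Bmpr2 and Smad4 are nearly without colour.

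Genes with the most similar profile were sought for the 3 members with the largest spread, among 11944 genes of at least 5 CPM. Likeness was the root mean square difference of centred log2 levels over 6 libraries. Among the 3 genes nearest to Bmp6 were the hexokinase gene Hk2 (0.13) and the complement protease gene C1s1 (0.14). Nearest to Bmp2 were Tgfb2 (0.19), the BMP-binding transmembrane protein gene Crim1 (0.22) and Palmd (0.23), and nearest to Bmp5 were Naalad2 (0.21), the ceruloplasmin gene Cp (0.25) and Slc37a2 (0.25). With 6 libraries and this many candidates, close profiles describe these cultures only.

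Overlapping genes bear on some counts. In the GENCODE annotation 5.74% of the exonic bases of Bmp6 overlap Txndc5 on the opposite strand, which had 5059 to 7754 counts, and 46.7% of those of Bmp5 overlap the opposite-strand transcript Gm26903. Bmpr1a shares 4.57% with Gm17110 and Bmp4 3.96% with Gm15217, which had 0 counts in every library. By the gene spans of the count table itself, neither Gm26903 nor Gm17110 overlapped a member. The library kit marks strand, but the strand setting of the counting is not given in the sources used here, so reads of these pairs may not have been told apart. Counts were fractional in 2 libraries each for Bmp6 and Bmpr2 and whole for the other 8 genes.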

How the data were processed

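Poly-A RNA of 6 cultures was sequenced with a stranded kit. The deposited values are estimated counts per gene and culture, not scaled, with 13.4% to 14.7% fractional values per library. Per the submitters' processing notes, bcl2fastq 2.20.0.422, cutadapt 2.5, STAR 2.7.2b, featureCounts 1.6.4 and build GRCm38.p6 were used; the handling of multi-matching reads is not given in the sources used here. The table had 0 further columns of per-sample values.

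CPM were computed from column totals. For models, counts were rounded, filtered with filterByExpr (14998 genes) and scaled by TMM in edgeR 4.0.16 (R 4.3.3), with DESeq2 1.42.0 as an alternative. The slope test leaves 4 residual degrees of freedom. Scripts for the slope and chi-square tests were tested on simulated data. The 10 genes and the lists of pathway and marker genes were chosen with earlier results of these data known. Named genes were the 10 members, pathway genes averaging at least 1 CPM, and, for the 3 members of largest spread, the 3 nearest profiles; 2 genes that this rule names are not reported here. The labels give no batch. Alternatives were other scalings, filters, pseudocounts and covariates, rounding, and each culture left out.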

Additional observations from a re-analysis of the deposited data

Results flagged for a closer look

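In 5 of 67 measures a single culture lay so far from the other 5 that its gap, as a share of the range, passed the 95% limit of Dixon's test. Chance flags about 1 in 20 measures, which is 3.35 here.

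The log2 difference of Bmp6 minus Bmp7 was 4.06 in replicate 5, where the next culture had 1.77, a gap of 0.815 of the range. Bmpr1a minus Acvr1 was 2.30 in replicate 1 and 1.57 in the next culture (0.722 of the range), from the highest Bmpr1a and the lowest Acvr1 of the 6 cultures. Replicate 5 was far above the others in the ligand Gdf10, at 3.87 against 1.15 CPM (0.702 of the range), in the RGM receptor Neo1, at 90.4 against 53.7 CPM (0.771), and in the BMP binder Bmper, at 19.3 against 7.48 CPM (0.705).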

How the results depend on the processing

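The levels of the 10 genes moved by less than 1 SD in each of the 100 alternative values computed. For the median and for means with 1 replicate left out this was fixed in advance, since such values always lie within 1 SD of the mean. Only the other scalings and the rounding could have given a larger move. Ordered by CPM in place of CPM per kb, 4 of 10 genes kept their rank; Bmpr2 then came before Acvr1, Bmp2 before Grem1 and Bmp7 before Nog. The 7 gene pairs kept their direction in each alternative run and kept their side of the threshold under other pseudocounts, rounding and CPM without length. With 1 replicate left out the smallest possible p is 0.0625, so no pair could pass; the log2 differences then lay between -1.85 and -1.57 for Bmp2 minus Bmp4, 1.54 and 2.10 for Bmp6 minus Bmp7, 1.70 and 2.20 for Bmp5 minus Bmp7, -2.26 and -1.79 for Bmp7 minus Bmp4, 1.42 and 1.62 for Bmpr1a minus Acvr1, -1.77 and -1.68 for Bmpr2 minus Bmpr1a, and -0.76 and -0.39 for Nog minus Grem1. Genes varying beyond counting noise numbered 11444, and 10098 to 11253 with 1 replicate left out or 8675 without replicates 1 and 5; the call of Bmp4 was lost without replicate 5 (chi-square, adjusted p = 0.0664).

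Genes with a higher slope on the fibroblast score numbered 771, and 158 to 756 with 1 replicate left out; 158 was the count without replicate 5 and 478 that without replicate 4. Genes with a lower slope numbered 180, and 7 to 219, with 7 without replicate 5 and 46 without replicate 4. Without replicates 1 and 5 both counts were 0, with 700 genes at an unadjusted p under 0.05 in edgeR. The glial lineage score gave 81 and 69, the median of the fibroblast list 281 lower, and DESeq2 1136 higher and 609 lower; the cause was not tested. The slope of Bmpr2 reversed to -0.00056 without the filter and to -0.04 without replicate 5, and over all sets of cultures left out it lay between -0.086 (without replicates 1 and 5) and 0.021. That of Bmpr1a lay between -0.118 and 0.072, the latter without replicates 1 and 5. Among other genes the slope without 1 replicate ranged from -0.51 to 0.29 for Fst, from -0.57 to 0.29 for Sostdc1 and, chosen after seeing the data and with no filter, from -0.12 to 1.58 for Bmp7. With replicates 1 and 5 also left out together, it ranged from -0.92 to 0.51 for Smad6 and from -0.25 to 0.41 for Id1. No called pathway gene given by name passed without both replicates or with the glial lineage score. Tgfbr3, not called with the fibroblast score, passed with the glial lineage score (edgeR adjusted p = 0.0471). No paired analysis was possible because the cultures form 1 group. Depth limits Bmp2, Bmp7, Nog and Grem1 most, since 3 counts correspond to 0.131 to 0.149 CPM.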
